A study of Zea mays with 6 samples.

Results

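A set of 92 maize leaf genes was listed at 0 FPKM in every library of plants carrying a transgene, while averaging at least 1 FPKM in the non-transgenic control. FPKM counts the fragments of a gene per kilobase of its length and scales them to the mapped fragments of its library. The genes were chosen by these FPKM values in both groups from the 44146 listed genes whose identifier starts with Zm00001d, of 44351 genes in all. The difference between the groups is therefore the choice itself and is given without a test. One gene outside that prefix, zma-mir395d, had the same pattern of levels and is not a member; it was listed at 3.34, 0 and 0 FPKM in the control libraries.

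The leaves came from the maize inbred KN5585, with 3 libraries for each of 2 groups. The series title names ZmSUS1, a sucrose synthase, as the overexpressed gene. The control samples carry the genotype KN5585 and the treatment label normal, and the transgenic samples carry the same genotype and the treatment label transgenic. All samples share a label of 3 days after drought, whereas the series text gives 5 days, so both groups were read as droughted. If the control plants were not, drought and the transgene cannot be told apart. The sources used here do not give the promoter of the transgene, the number of transformation events or whether libraries came from separate plants. The p-values below measure only the spread between these libraries.

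Identifiers of this form belong to an annotation of the maize inbred B73 and run broadly along each chromosome, so close numbers often mean close genes. Positions were not available here, so words such as beside and neighbouring refer to identifier numbers only. Maize inbreds are known to differ in gene content, and a gene annotated in one may be missing or altered in another. Many plant genes are also read at low levels, in a few cells or under certain conditions only, and in bulk leaf tissue a lower share of such cells cannot be told apart from less RNA per cell. None of the 92 identifiers is paired with a gene name in the files or in the reference table used here. No role is given for any of them, and neither ZmSUS1 nor defining leaf markers could be looked up.

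Most of the 92 genes were low in the control, and about as many were seen in only part of the control libraries as in all of them. The control means ran from 1.00 to 71.2 FPKM with a median of 1.88 FPKM. Of the 92 genes, 49 averaged under 2 FPKM, 12 reached 5 FPKM and 5 reached 10 FPKM. In all 3 control libraries 45 genes (48.9%) had a value above 0, 26 (28.3%) had one in 2 libraries and 21 (22.8%) in 1 library. A gene seen in 1 library needed at least 3 FPKM there to be a member, and these single values ran from 3.00 to 40.2 FPKM. They fell in control 1 for 9 genes, in control 2 for 5 and in control 3 for 7, so no 1 library held them all. Summed over the members, the level was 319, 325 and 358 FPKM in the 3 control libraries, or between 0.0466% and 0.0519% of all FPKM of a library.

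**Figure D1:**
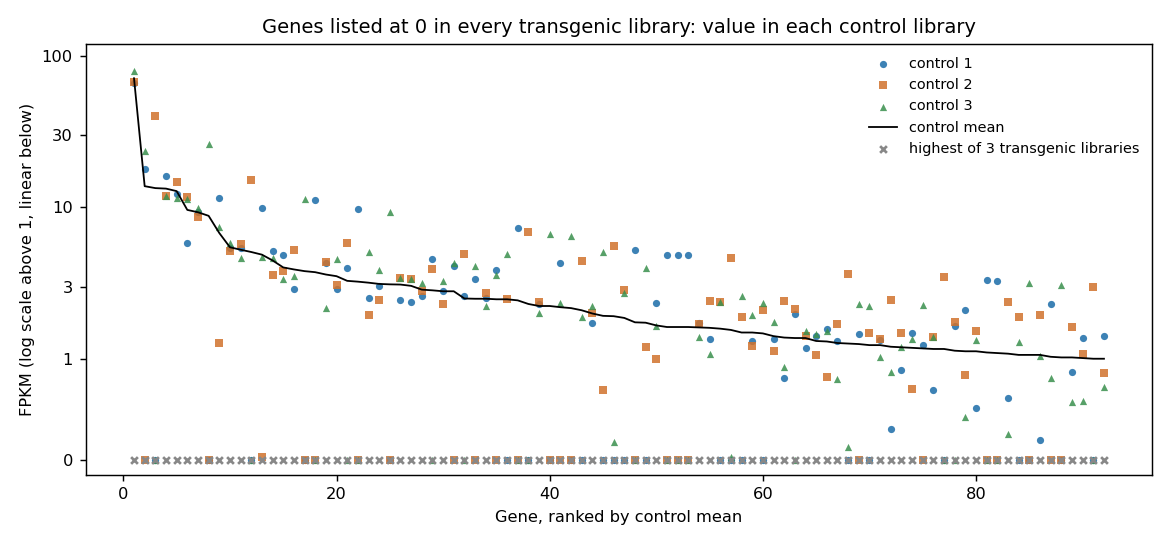
FPKM of each of the 92 genes in the 3 control libraries (coloured points), with the control mean (line) and the highest transgenic value (crosses, all at 0); genes are ranked by control mean from 71.2 to 1.00 FPKM, and the axis is logarithmic above 1 FPKM and linear below. Points lie close to the line for genes such as the first, and far from it where a control library was also listed at 0.

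One gene stood well above the others. Zm00001d000685 was listed at 66.8, 67.4 and 79.3 FPKM in the control libraries, 71.2 ± 7.07 FPKM (SD, n = 3), and at 0 in each transgenic library. It alone made up 21.3% of the summed control level of the members. The next in rank by control mean, Zm00001d010338, was at 17.8, 0 and 23.7 FPKM, and Zm00001d009076 was at 0, 40.2 and 0 FPKM. These 2 genes thus owed their rank to some of the control libraries only, and in at least 1 control library each they were listed at 0, as in the transgenic group.

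Most of the other genes of the 10 with the highest control mean had a value in every control library. Zm00001d027840 was at 16.2, 11.9 and 11.8 FPKM in the control libraries. Zm00001d019925 was at 12.2, 14.7 and 11.6 FPKM, and Zm00001d044079 at 9.34, 8.61 and 9.88 FPKM. In these 3 genes every control library lay far above 0. Zm00001d006101 had a smaller spread, at 5.41, 5.15 and 5.80 FPKM. Zm00001d011508 varied more, at 5.78, 11.7 and 11.4 FPKM, and Zm00001d023687 most of all among those seen throughout, at 11.6, 1.27 and 7.47 FPKM. Zm00001d006600 was seen in control 3 only, at 26.4 FPKM.

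Where every control library had to reach 1 FPKM, 30 of the 92 genes remained, with a median control mean of 3.11 FPKM. Of these, 8 averaged at least 5 FPKM, 13 between 2 and 5 FPKM, and 9 under 2 FPKM. Examples picked after their values were seen are Zm00001d003494, at 2.60, 2.82 and 3.17 FPKM, Zm00001d019504, at 2.52, 2.73 and 2.23 FPKM, and Zm00001d007411, at 2.30, 2.38 and 2.02 FPKM. These examples, between 2 and 5 FPKM, were about as even across the control libraries as some members with higher values. At the median, lower members were less even, as given next.

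In each class of control level, the median variation between control libraries was higher in the members than in the other genes compared. Among genes with a value in every control library and a mean from 1 to 2 FPKM, the coefficient of variation had a median of 35.8% over the 23 members and of 16.3% over the 2163 other genes, all of which also had a value in every transgenic library. From 2 to 5 FPKM it was 18.9% in 14 members and 10.7% in 3631 other genes. From 5 FPKM up to the level of the highest member it was 11.8% in 8 members and 4.55% in 13132 other genes. Of these 8 members 3 averaged at least 10 FPKM, and levels were not matched within a class. No test was made of the difference in variation, since the choice of the members and the levels within a class bear on it. So does the demand that the other genes have a value in every transgenic library. Nothing about the members is therefore read from it.

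In some members, control 2 and control 3 had nearly equal values above that of control 1, and 3 of these members are given. Zm00001d003915 was at 0.69, 1.40 and 1.40 FPKM, so that the higher libraries stood at 2.03 times the lowest. Zm00001d005283 was at 2.43, 3.41 and 3.42 FPKM and Zm00001d044558 at 2.38, 3.35 and 3.36 FPKM, with control 3 at 1.41 times control 1 in both. These 3 genes were picked after their values were seen. Zm00001d000033, Zm00001d004703 and Zm00001d029966 shared all 6 values, 4.87 FPKM in control 1 and 0 in the rest, and shared reads of similar genes cannot be told apart in such values. How many fragments stand behind any of these values is unknown.

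The share of genes listed at 0 in the transgenic libraries was smaller at higher control levels. Of the 20967 genes with a control mean of at least 1 FPKM, the 92 members were 0.439%. They were 2.03% of the 2412 genes from 1 to 2 FPKM, 0.823% of the 3768 genes from 2 to 5 FPKM, 0.186% of the 3756 genes from 5 to 10 FPKM and 0.0453% of the 11031 genes above that. It also differed with the number of control libraries that had a value. Among genes seen in all 3 control libraries, 45 of 20848 (0.216%) were members, against 26 of 80 (32.5%) of those seen in 2 and 21 of 39 (53.8%) of those seen in 1. Genes seen in part of the control libraries were thus a small class, of which a large share was at 0 in the transgenic group.

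**Figure D2:**
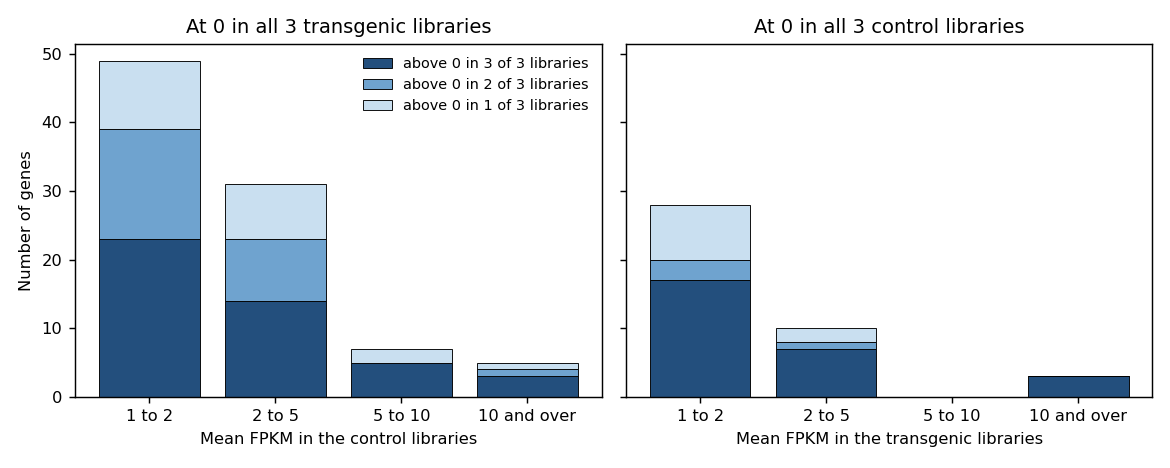
Number of genes at 0 in every library of 1 group, by mean FPKM in the other group and by how many of that group's 3 libraries had a value above 0 (shades). At left are the 92 genes at 0 in the transgenic libraries, 49 of them in the lowest class; at right are the 41 genes at 0 in the control libraries, 28 of them in the lowest class.

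The opposite pattern was rarer as deposited, and less so after scaling. At 0 in every control library and at least 1 FPKM on average in the transgenic libraries stood 41 genes, 0.213% of the 19233 genes at that transgenic level. Of these, 27 (65.9%) had a value in all 3 transgenic libraries, and 18 reached 1 FPKM in each, against 30 for the genes silent in the transgenic group. With the same threshold applied to FPKM after median-of-ratios scaling, which removes a shift shared by most genes, 67 genes were silent in the transgenic group and 55 in the control. The highest of the 41, Zm00001d004248, picked after its values were seen, was at 22.2, 22.8 and 21.9 FPKM in the transgenic libraries. Fewer genes had any value in the transgenic libraries, 28306 ± 6.81 (SD, n = 3), than in the control libraries, 29298 ± 73.9 (SD, n = 3), and total FPKM was 830423 ± 794 against 685931 ± 3134 (SD, n = 3 each). The scaled counts show how far the shared shift in FPKM moved the number of silent genes, whereas the part of the number of genes with any value was not tested.

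The depth of the libraries is unknown, but their low values could be compared. For genes with a 0 in some library, ratios of values between 0.3 and 6 FPKM were taken for all 9 pairs of a transgenic and a control library. Of 2442 ratios, the fullest window of 0.04 on the log2 scale held 135, at a ratio of 0.97, and the next fullest held 56, at 0.49. A window held 25 ratios at the median. Between control libraries the fullest window lay at 1.01 and between transgenic libraries at 0.99. If equal low values stand for equal numbers of fragments, a fragment of a gene counted for about the same FPKM in both groups.

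The choice was then repeated on fewer libraries, so that the library left out had no part in it. Whether that library came from a separate plant is unknown. Chosen without transgenic library 1, 2 or 3, the same rule gave 133, 127 and 135 genes. Those also at 0 in the library left out are the 92 members by definition, and they made up 69.2%, 72.4% and 68.1% of the chosen genes. The like share over all genes is not given here. The others had low values there, with medians of 0.56, 0.22 and 0.31 FPKM and highest values of 12.5, 4.49 and 7.09 FPKM. Of the 41, 35 and 43 genes that had a value in the library left out, 13, 8 and 15 reached 1 FPKM there.

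For a control library left out the measure was another one, the share of the chosen genes that reached 1 FPKM there. Chosen without control 1, 2 or 3, there were 100, 94 and 86 genes, and 45.0%, 45.7% and 54.7% of them reached 1 FPKM in that library. In it 41, 38 and 27 of them were listed at 0. Among all genes that averaged at least 1 FPKM in the other control libraries, between 97.4% and 97.5% reached 1 FPKM in the library left out and at most 0.416% were at 0. Among genes that averaged 1 to 2 FPKM in the other control libraries, 42.6%, 40.4% and 29.5% of the chosen genes were at 0 in the library left out, against 0.867%, 1.03% and 1.02% of the other genes of that level. The chosen genes had to be at 0 in every transgenic library, a demand that the other genes of that level did not meet. The choice therefore bears on these shares. They were not tested, and nothing about the members is read from them.

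Near the limits of the rule the genes did not separate. Just inside the control threshold lay Zm00001d024641, at 0, 3.00 and 0 FPKM, Zm00001d048629, at 1.42, 0.86 and 0.72 FPKM, and Zm00001d034861, at 1.37, 1.07 and 0.58 FPKM. Just outside lay Zm00001d024456, at 0, 0.84 and 2.07 FPKM, Zm00001d034242, at 0.37, 1.53 and 1.00 FPKM, and Zm00001d030941, at 0.85, 0.92 and 1.07 FPKM. In all, 2585 further genes were at 0 in every transgenic library with a control mean above 0 and under 1 FPKM, so the members are the upper end of a long list.

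Silence was also a matter of degree. If at most 0.05 FPKM was allowed in each transgenic library, 18 genes joined, of which the 2 with the highest control mean are given, a choice made after the values were seen. Zm00001d042905 was at 16.6, 18.1 and 16.9 FPKM in the control against 0, 0 and 0.05 FPKM with the transgene. Zm00001d013900 was at 7.73, 7.64 and 8.36 FPKM in the control against 0, 0.01 and 0 FPKM with the transgene. A further measure was a transgenic mean above 0 and at most 1% of the control mean, which 42 genes met. Of these, 4 had a higher control mean than any member, namely Zm00001d037894, Zm00001d028750, Zm00001d004348 and Zm00001d010586. Zm00001d004348 went from 734, 745 and 744 FPKM to 7.71, 6.56 and 7.32 FPKM, and Zm00001d010586 from 181, 184 and 184 FPKM to 0.75, 1.5 and 1.16 FPKM. Next in control level, Zm00001d031228 went from 66.9, 65.9 and 71.0 FPKM to 0.37, 0.50 and 0.37 FPKM, close to the control level of the highest member. These 5 genes had a value in every transgenic library rather than a listed 0. Zm00001d037894, Zm00001d028750, Zm00001d004348 and Zm00001d010586 averaged 2.88, 5.52, 7.2 and 1.14 FPKM there, above the 1 FPKM asked of a member's control mean. Those 4 were thus low only relative to their control level.

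The members did not stand side by side in the annotation. No 2 members had identifier numbers within 5 of each other, so there were no runs of neighbouring identifiers among the 92. The 41 genes silent in control held 1 run at that distance. How many runs as many other genes would hold is not given here, so the count is a description only. The closest were Zm00001d043668 and Zm00001d043676, 8 apart, at 1.32, 1.35 and 1.03 FPKM and at 0, 0 and 9.30 FPKM. Zm00001d051230 and Zm00001d051243 were 13 apart, at 2.29, 0 and 0.81 FPKM and at 0, 2.09 and 2.33 FPKM. The median gap between successive members was 497 identifier numbers.

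Members were found across nearly the whole range of numbers. Their counts differed between blocks, and whether they are spread unevenly was not tested. In 10 blocks of equal numbers of listed genes, between 4 and 16 members were found, with the fewest from Zm00001d032214 to Zm00001d037709 and the most from Zm00001d043221 to Zm00001d048562. The same blocks held 1 and 9 of the 41 genes silent in control, and 2213 and 2165 genes with a control mean of at least 1 FPKM. Block 4 in identifier order, in contrast, held 11 members and only 1 gene silent in control. The densest stretch of 500 numbers, found after the values were seen, ran from Zm00001d043586 to Zm00001d044079 with 6 members among 414 listed genes. Expressed genes were about as frequent there as among all listed genes, 211 of the 414 having a control mean of at least 1 FPKM, against 20967 of all 44146 (47.5%). The nearest approach to a gene silent in control was 12 numbers, between Zm00001d013024, at 1.45, 0 and 2.29 FPKM in the control, and Zm00001d013036, at 18.1, 17.6 and 18.5 FPKM in the transgenic libraries.

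**Figure D3:**
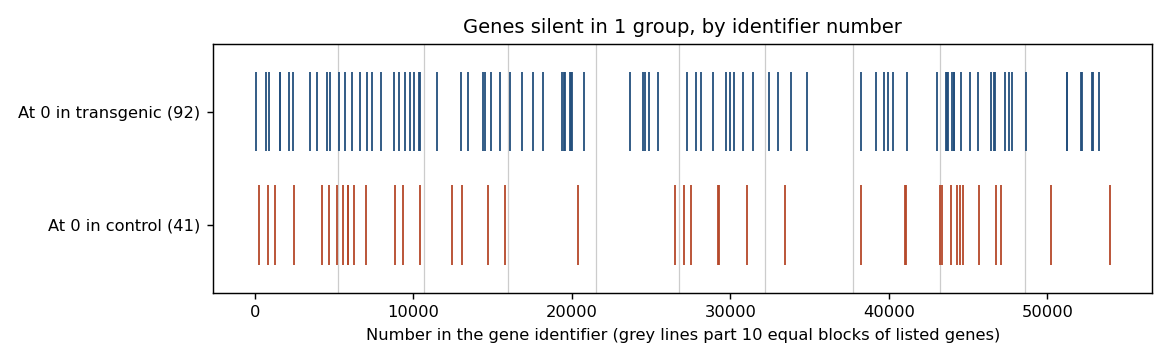
Identifier numbers of the 92 genes at 0 in the transgenic libraries (upper row) and of the 41 genes at 0 in the control libraries (lower row), each line 1 gene; grey lines part the listed genes into 10 blocks of equal size. Members are spread over nearly the whole range, with 4 to 16 in a block and no pair within 5 numbers.

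The genes around the members were not chosen by the rule, and their difference between the groups was tested with limma on log2(FPKM + 1). Across all 22944 genes tested, 67.7% were lower and 16.3% higher in the transgenic libraries at an adjusted p of 0.05, and the median log2 difference was -0.56. All 92 members passed the filter for testing by construction of the rule, and 65 of them (70.7%) were called lower, from which nothing is read because the rule used the same contrast. Within 5 identifier numbers of a member, 439 other genes were tested, of which 305 (69.5%) were lower and 68 (15.5%) higher, with a median log2 difference of -0.55 (-0.34 without a filter on low genes). These shares are close to those of all genes tested. After median-of-ratios scaling 165 of them (37.6%) were lower and 154 (35.1%) higher, with a median of -0.04.

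Directly beside the members the share of lower genes was larger. Within 1 identifier number 104 genes were tested, of which 82 (78.8%) were lower and 8 (7.69%) higher, with a median log2 difference of -0.67. Within 2 numbers 137 of 189 (72.5%) were lower, and within 20 numbers 1051 of 1563 (67.2%). Median-of-ratios scaling brings the median of all genes from -0.56 to -0.02, and 36.9% of all genes tested were then lower and 36.3% higher. Of the 104 genes within 1 number, 43 (41.3%) were lower and 28 (26.9%) higher after that scaling, with a median log2 difference of -0.10. Whether the shares beside the members exceed those of all genes was not tested, and reads of overlapping neighbours cannot be told apart.

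**Figure D4:**
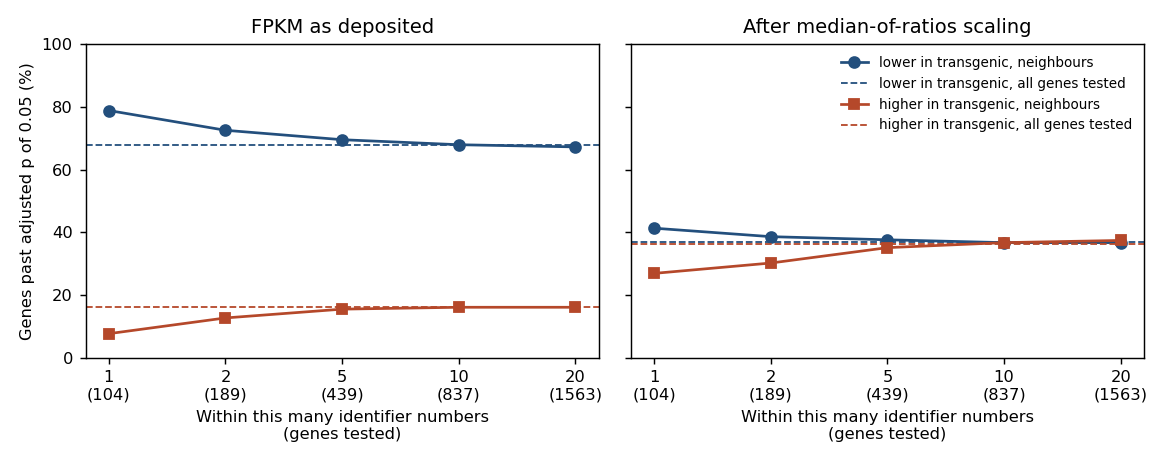
Percentage of genes near a member that were lower (circles) or higher (squares) in the transgenic libraries at an adjusted p of 0.05, by distance in identifier numbers (unevenly spaced categories, each including the nearer ones), with dashed lines for all 22944 genes tested. As deposited, the share of lower genes goes from 78.8% within 1 number to 67.2% within 20, against 67.7% in all genes.

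The genes next to the 10 highest members differed widely in level. Of the 20 listed genes on either side, 5 were at 0 in all 6 libraries and 13 could be tested. As deposited, 12 of the 13 were lower and 1 was higher, where 67.7% of all genes tested were lower and 16.3% higher. After median-of-ratios scaling 8 were lower and 2 higher, where 36.9% of all genes tested were lower and 36.3% higher. Whether these 13 genes differ from all genes was not tested. Zm00001d044078, beside Zm00001d044079, was at 38.1, 31.2 and 39.3 FPKM in the control against 0.95, 5.70 and 4.43 FPKM with the transgene, and the groups did not overlap. The log2 fold change was -3.16 with a standard error of 0.40 (limma, Benjamini-Hochberg adjusted p = 8.1e-05), and -2.58 after scaling. Zm00001d019926, beside Zm00001d019925, was at 10.5, 9.14 and 10.6 FPKM in the control against 1.07, 1.75 and 1.48 FPKM with the transgene. Here the log2 fold change was -2.19 with a standard error of 0.12 (limma adjusted p = 3e-07), and -1.68 after scaling.

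Other members had neighbours that did not share their direction or were themselves near 0. Zm00001d027840 lay between Zm00001d027839, which was lower at 5.56, 7.25 and 7.57 FPKM against 18.3, 17.6 and 23.0 FPKM in the control, and Zm00001d027841, which was higher. The latter rose from 280, 283 and 280 FPKM to 800, 786 and 797 FPKM, which is 1.49 on the log2 scale with a standard error of 0.02 (limma adjusted p = 3.1e-11), and 2.18 after scaling. Zm00001d006601, beside Zm00001d006600, was lower as deposited, with a log2 fold change of -0.36 (limma adjusted p = 0.00047), and higher after scaling, at 0.27 (limma adjusted p = 0.0036). The highest member, Zm00001d000685, stood between Zm00001d000684, at 0 in all 6 libraries, and Zm00001d000686, at 0.12 FPKM in control 1 and 0 in the others. No gene directly beside the highest member thus had a level that could be compared between the groups.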

How the data were processed

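RNA sequencing of leaves gave 1 table per library, with FPKM values for 44351 genes that the authors deposited rounded to 2 decimals, per the file headers. A listed 0 can therefore be a value under 0.005 FPKM. Total RNA went into a SMARTER library kit for mRNA, per the labels' protocols. DESeq2 and the mouse build mm10 are named without a role, per the submitters' processing notes; the sources used here do not give an aligner, a counting program or a maize build. FPKM holds no fragment numbers, so depth is unknown and no counting interval is given.

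The members and lists were chosen with earlier results of these data known. Of all genes, those that averaged 0.5 FPKM or more over the 6 libraries entered limma 3.58.1 (R 4.3.3) as log2(FPKM + 1) (group as the only term, intensity trend, two-sided, Benjamini-Hochberg adjustment, threshold 0.05), and this was tested on simulated data. Fold changes on this scale understate those of low genes. Named were the 10 members with the highest control mean, runs of neighbouring identifiers within 5 numbers, the 3 genes on each side of the control threshold, members sharing all values, and the 5 highest genes at no more than 1% of the control mean; other genes named (the closest pairs, the ends of blocks and stretches, genes beside a named one and single examples) were chosen after the values were seen. Alternatives were other thresholds, filters, scalings, distances, a pseudocount of 0.1, the replicate number as a block, and leaving out each library. Python 3.11.15, pandas 2.3.3 and matplotlib 3.10.9 were used for tables and figures. Of the 92 identifiers, 0 were found in the RefSeq gene table used here (Zm-B73-REFERENCE-NAM-5.0), so no sequence or position is given.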

Additional observations from a re-analysis of the deposited data

How the results depend on the processing

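The number of genes silent in the transgenic libraries depends on where the control level is set. It was 92 at a control mean of 1 FPKM, 174 at 0.5 FPKM, 43 at 2 FPKM, 12 at 5 FPKM and 30 with every control library at 1 FPKM; it ranged from 86 to 135 when single libraries were left out. Genes silent in control, 41, numbered 106, 13 and 3 at 0.5, 2 and 5 FPKM, 18 with every transgenic library at 1 FPKM (an alternative added after the data were seen), and from 42 to 64 without single libraries, the highest without control replicate 2. Members in runs, 0 within 5 numbers, were 2 within 10 and 4 within 20 numbers, 6 at a control mean of 0.5 FPKM, and 0 to 2 without single libraries (2 without control replicate 1, transgenic replicate 1 or transgenic replicate 2). Neighbours called lower, 305 within 5 numbers, were 82, 137, 568 and 1051 within 1, 2, 10 and 20 numbers, because other distances hold other numbers of genes. With median-of-ratios scaling 165 neighbours were lower and 154 higher (68 as deposited), and of all genes 8464 were lower and 8333 higher (15529 and 3749 as deposited), by construction of the scaling. With single libraries left out, 296 to 301 neighbours were lower and 65 to 68 higher. With the replicate number as a block, 305 neighbours were lower and 70 higher; the deviations of same-numbered libraries correlated at 0.00193, -0.0512 and 0.00184, so the numbers do not pair the libraries, and the block moved no count by over 1.5 times. The median log2 difference of the neighbours, -0.55, was -0.04 with median-of-ratios scaling, -0.34 without a filter and -0.70 with a pseudocount of 0.1. After median-of-ratios scaling 67 genes were silent in the transgenic libraries and 55 in control. A value of a few FPKM may rest on few fragments.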
